A study of Homo sapiens with 10 samples.

Results

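T2 is a line of MDA-MB-231 tumour cells, isolated from a xenograft in a SCID mouse that grew back after treatment with the drug SM-164, and its label calls it resistant to the drug. It was set against parental MDA-MB-231 cells, which were kept in culture and are labelled sensitive. The members were chosen by sample title alone: 2 T2 arrays and 2 parental arrays, 4 of the 10 arrays of the series. The other 6 arrays, 2 each, hold T3 (resistant), T6 (sensitive) and T8 (sensitive), isolated in the same way from regrown tumours after the same drug. Each mouse was given SM-164 into a vein, 5 mg/kg per dose on 5 days of the week, over 2 weeks. Total RNA, 5 ug per labelling, was measured on Affymetrix arrays, and all 14929 genes that passed a filter on low signal, of 19775 named genes, are described.

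SM-164 is a Smac mimetic. It imitates the mitochondrial protein Smac and binds the IAP proteins, which restrain caspases and, as ubiquitin ligases, steer signalling from the TNF receptor toward NF-kB and survival. When IAP proteins are lost, TNF produced by the tumour cells themselves can instead drive RIPK1 and caspase-8 to kill the cell. MDA-MB-231 is an established, mesenchymal human breast cancer line of the triple-negative kind.

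The T2 cells carried the line's usual markers. The mesenchymal filament gene VIM averaged 14.37 in T2 and 14.13 in parental cells on the log2 scale of the arrays, CD44 12.49 and 12.49, EGFR 10.79 and 10.69, and the receptor kinase gene AXL 12.66 and 12.88. The oestrogen receptor gene ESR1 stood at 6.65 and 6.71 and the E-cadherin gene CDH1 at 5.40 and 5.04, and the progesterone receptor gene PGR (4.04 and 4.18) did not pass the filter. EPCAM, an epithelial surface marker, was present in both lines, at 9.10 in T2 and 8.40 in parental cells. The receptor gene ERBB2 was also well above the filter in both, at 9.18 in T2 and 9.26 in parental cells.

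A gene counted as measured well enough if the signal of its probe set came to log2 5 or more on no fewer than 2 arrays, and 14331 to 14640 genes did so on the T2 arrays, against 14404 to 14606 on the parental arrays. The median absolute difference between the arrays of a line was 0.133 in T2 and 0.106 in parental cells. Arrays of T2 correlated over genes at 0.997 with each other, at 0.992 to 0.995 with T6, at 0.984 to 0.988 with T8, at 0.979 to 0.982 with T3 and at 0.975 to 0.980 with parental cells. Nothing in the labels says whether both arrays of T2, or both of the parental cells, came from separate cultures, so the p-values here reflect the spread between arrays, which may be only technical. T2 is 1 tumour and an untreated xenograft was not analysed here, so passage through a mouse, exposure to SM-164, cell isolation and chance traits of this tumour cannot be told apart. In such bulk RNA, fewer cells of a kind and less RNA per cell cannot be told apart either.

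The comparison of T2 with parental cells asked what distinguishes a tumour that regrew with resistance from the cells it came from. Of the 14929 genes, limma called 2609 higher (17.5%) and 2319 lower (15.5%) in T2 at a Benjamini-Hochberg adjusted p under 0.05. By log2 1 or more, 337 were higher (2.26%) and 184 lower (1.23%). The median difference over all genes was -0.0043.

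Genes of matrix breakdown, growth factor signalling and survival were among those that rose most. MMP1, the interstitial collagenase, stood at 13.82 and 13.93 on the T2 arrays, against 9.22 and 8.995 on the parental arrays, a rise of 4.76 ± 0.073 (SE; adjusted p = 4.94e-15), or 27.2-fold. BCL2A1, an anti-apoptotic BCL2 relative induced by NF-kB, read 7.78 and 8.06 in T2, against 3.67 and 3.67 in parental cells (rise of 4.25 ± 0.14; adjusted p = 3.63e-11). Both parental values of BCL2A1 were under log2 5, close to background, so the size of its rise is uncertain. EREG, which encodes the EGFR ligand epiregulin, had 11.48 and 11.86 in T2 and 7.92 and 7.57 in parental cells (rise of 3.92 ± 0.14; adjusted p = 4.53e-11). In each of these genes both T2 arrays lay far above both parental arrays.

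TAGLN, the actin-binding protein transgelin of contractile cells, was at 10.91 and 11.05 in T2, against 7.51 and 7.56 in parental cells, a rise of 3.45 ± 0.074. KYNU, the kynureninase of tryptophan breakdown, was at 9.62 and 9.77, against 6.41 and 6.43 (3.28 ± 0.087). ID2, an inhibitor of basic helix-loop-helix factors and a target of BMP signalling, was at 9.004 and 9.46, against 6.15 and 6.12 (3.10 ± 0.12). The membrane genes SEL1L3 (3.86 ± 0.10), TENM3 (3.30 ± 0.12), a teneurin of cell adhesion, and PCDH7 (3.02 ± 0.13), a protocadherin, rose as well. So did WDR72 (4.44 ± 0.13), the urea transporter SLC14A1 (3.22 ± 0.13) and DCDC2 (3.05 ± 0.13), a microtubule-binding protein. The adjusted p-values of these 9 genes were at most 1.76e-10. All 9, like the genes before them, were picked for arrays of T2 that do not overlap those of parental cells.

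The genes that fell most were led by MHC class II. HLA-DPA1, a class II alpha chain, read 5.86 and 5.38 in T2, against 9.56 and 9.22 in parental cells, and fell by 3.77 ± 0.15 (SE; adjusted p = 1.37e-10). SERPINA1, the antitrypsin gene, was at 5.97 and 5.56 in T2, against 9.45 and 9.27 in parental cells (-3.59 ± 0.15; adjusted p = 1.76e-10). CEMIP, which takes part in hyaluronan breakdown, was at 7.79 and 7.40, against 10.97 and 10.97 (-3.37 ± 0.15). S100A4, a calcium-binding protein tied to cell motility, was at 10.49 and 10.25, against 13.12 and 13.05 (-2.72 ± 0.073), so it stayed bright in T2. Also lower were HLA-DRA (-3.46 ± 0.15), CD74 (-3.42 ± 0.14), the adhesion receptor ADGRF1 (-3.38 ± 0.18), the protease inhibitor CST6 (-3.003 ± 0.15), AKR1C3 (-2.97 ± 0.10), OLFML2A (-2.96 ± 0.11), STMN3 (-2.94 ± 0.11), a microtubule-destabilising stathmin, and CALB2 (-2.79 ± 0.10), the calcium buffer calretinin. Each of these 12 had an adjusted p of at most 1.98e-09.

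The brightest probe set stood for each gene, and other probe sets of some of these genes moved less. For TENM3 the value without the less specific probe sets was 0.02 (adjusted p = 0.955), and the rise therefore comes from a single probe set. The same choice left TAGLN at 0.44, CEMIP at -0.68 and KYNU at 1.96, still called. With the mean over probe sets WDR72 stood at 1.76, SEL1L3 at 1.79, EREG at 2.56, KYNU at 2.10, DCDC2 at 1.54, CD74 at -1.65, SERPINA1 at -2.02, ADGRF1 at -1.97 and CST6 at -1.77, all still called.

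**Figure D1:**
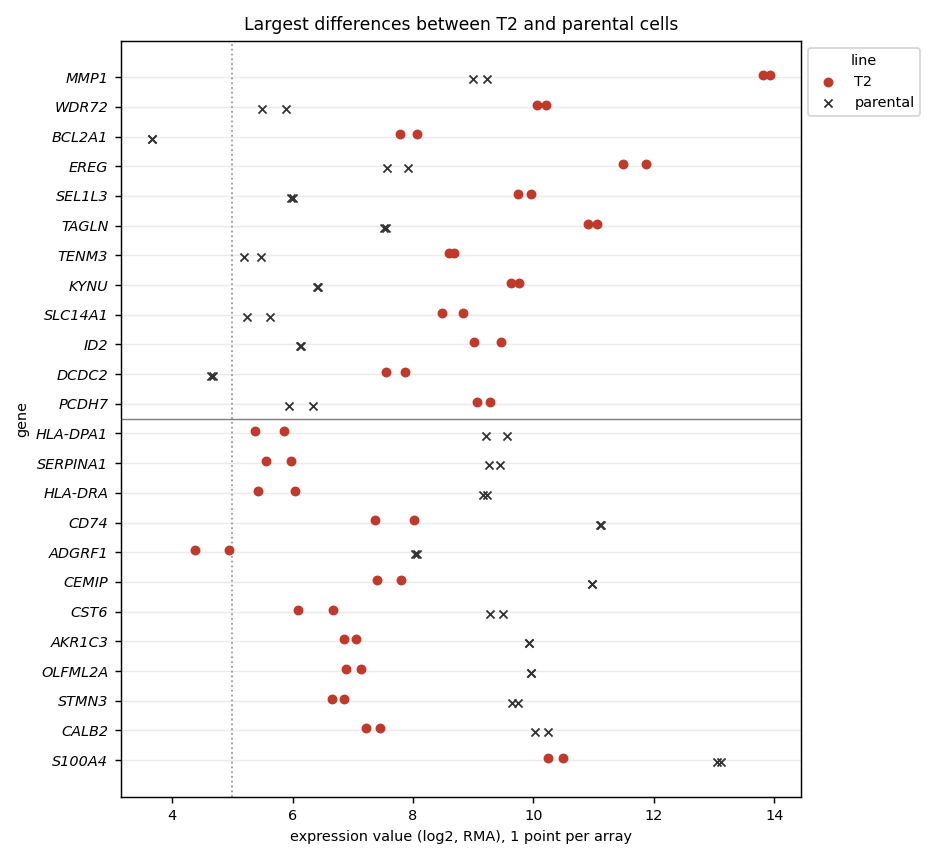
Expression values (log2, x axis) of the 12 genes that rose most and, below the line, the 12 that fell most in T2 against parental cells, with 1 point per array and the filter value of log2 5 dotted. MMP1 reads 13.82 and 13.93 in T2 and 9.22 and 8.995 in parental cells, and the genes were picked for arrays that do not overlap between the lines.

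Of the IAP proteins and their antagonists, the targets of SM-164, 4 of 9 tested genes were higher and 2 lower. This and the list counts that follow stand beside shares of 17.5% higher and 15.5% lower over all genes. BIRC2, which encodes cIAP1, the IAP that Smac mimetics degrade, stood at 12.72 and 12.84 in T2, against 12.27 and 12.22 in parental cells, a rise of 0.53 ± 0.058 (adjusted p = 4.37e-06). XIAP, the direct caspase inhibitor, read 9.15 and 9.31 in T2 and 9.86 and 9.46 in parental cells, a fall of 0.43 ± 0.12 (adjusted p = 0.0153). The XIAP arrays lay close together, and without parental replicate 1 the value was -0.23 (adjusted p = 0.185). The IAP antagonist HTRA2 rose by 0.59 ± 0.066, whereas XAF1, an interferon-induced XIAP antagonist, fell by 0.95 ± 0.16, or by 0.47 with the mean over its probe sets. BIRC3 was not analysed here.

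Of 22 genes of the TNF receptor complex 3 were higher and 4 lower, shares of 13.6% higher and 18.2% lower that lie close to those over all genes. The ligand TNF read 5.15 and 4.93 in T2 and 4.89 and 4.82 in parental cells and was not called (0.18 ± 0.16; adjusted p = 0.421). Its receptor TNFRSF1A (-0.014 ± 0.063; adjusted p = 0.906) and the initiator caspase CASP8 (-0.03 ± 0.12; adjusted p = 0.893) were not called either, and RIPK1 was not analysed here. The other TNF receptor, TNFRSF1B, was at 5.33 and 5.21 in T2, against 6.85 and 6.53 in parental cells (-1.42 ± 0.14; adjusted p = 2.14e-06). TNFAIP3, which encodes A20, an NF-kB target that damps the same receptor complex, was at 9.15 and 9.34, against 7.80 and 7.76 (1.46 ± 0.091; adjusted p = 1.20e-08). MLKL, the executor of necroptosis, rose by 0.98 ± 0.087, and RBCK1, a subunit of the linear ubiquitin ligase, by 0.44 ± 0.06.

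The gene of the death ligand TRAIL, TNFSF10, stood at 7.67 and 7.78 on the T2 arrays, against 10.21 and 10.08 on the parental arrays, and fell by 2.42 ± 0.10 (adjusted p = 1.99e-10). The TRAIL receptor TNFRSF10A (0.46 ± 0.085) and the decoy receptor TNFRSF10D (1.15 ± 0.10) rose. In all, 2 of 12 death ligands and receptors were higher and 3 lower, including LTB at -0.44 ± 0.14, a call that rests on its less specific probe set. Of the BCL2 family 4 of 15 were higher and 2 lower. After BCL2A1 came the pro-apoptotic BIK (0.56 ± 0.10) and PMAIP1 (0.48 ± 0.072), which encodes NOXA, while the pro-apoptotic effector BAX fell by 0.47 ± 0.15. Among caspases and the apoptosome 4 of 8 were higher, with the inflammatory CASP4 (1.36 ± 0.088) and CASP1 (0.63 ± 0.18) and the apoptosome scaffold APAF1 (0.76 ± 0.11), and CASP2 was the 1 lower gene (-0.78 ± 0.065). CASP1 was not called without parental replicate 2 (0.24; adjusted p = 0.198). With the mean over probe sets, CASP4 stood at 0.77, APAF1 at 0.33 and CASP2 at -0.48, still called, and 1 further APAF1 probe set above log2 5 read 0.002.

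LRIG1, which marks EGFR and its relatives for degradation, was at 6.40 and 6.68 in T2, against 7.63 and 7.40 in parental cells (-0.97 ± 0.14; adjusted p = 8.50e-05), and LRIG2 was lower too (-0.36 ± 0.10), 2 of 3 LRIG genes tested. This fall came from its brightest probe set, and the mean over all its probe sets gave -0.21 (adjusted p = 0.107). Of 7 ERBB receptors and EGFR ligands 3 were higher and none lower, EREG followed by NRG1 (0.39 ± 0.068) and HBEGF (0.21 ± 0.072). The NRG1 call ended without the less specific probe sets (0.21; adjusted p = 0.337) and the HBEGF call without T2 replicate 2 (0.12; adjusted p = 0.302) or with the mean over probe sets (0.13; adjusted p = 0.139). Other receptor tyrosine kinases split into 5 higher and 4 lower of 20, with IGF1R at 0.67 ± 0.16, ROR1 at -0.54 ± 0.081 and EPHB4 at -0.44 ± 0.08. IGF1R stood at 0.42 with the mean over its probe sets and at 0.43 without parental replicate 2, still called.

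Genes of ERK output and feedback were called higher in 12 and lower in 6 of 22 (54.5% higher and 27.3% lower). This rise was not particular to T2: 1 member was higher and 11 lower than in T3, 2 and 1 against T6, and 2 and 10 against T8. Over all genes the shares were 13.9% higher and 16.9% lower against T3, 3.08% and 6.38% against T6, and 9.66% and 22.1% against T8. EGR1, an immediate early transcription factor, stood at 9.98 and 10.14 in T2, against 7.71 and 7.63 in parental cells (2.39 ± 0.084; adjusted p = 4.39e-11). IL11, a cytokine of the IL6 family, was at 10.99 and 11.11, against 9.18 and 9.12 (1.90 ± 0.066; adjusted p = 4.35e-11), and the feedback inhibitor SPRY2 rose by 0.84 ± 0.094, while the transcription factor ETV1 fell by 0.84 ± 0.14. NF-kB targets were called higher and lower in 7 each of 21. BCL2A1, PTGS2 and TNFAIP3 were among the higher ones, and the adhesion molecule VCAM1 fell by 0.89 ± 0.17.

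PTGS2, a cyclooxygenase induced in inflammation that starts prostaglandin synthesis, was at 6.51 and 6.77 in T2, against 4.07 and 3.997 in parental cells (2.60 ± 0.12; adjusted p = 6.11e-10), with parental values near background. Of 14 genes of prostaglandin synthesis and its receptors 6 were higher and 2 lower. PLA2G4A, the phospholipase that frees arachidonic acid, rose by 1.31 ± 0.17 and the receptor PTGFR by 0.94 ± 0.15, and AKR1C3, which also acts as a prostaglandin F synthase, was the strongest of the lower pair. PLCB4, a phospholipase C, was at 6.07 and 6.63 in T2, against 4.09 and 4.44 in parental cells (2.08 ± 0.17; adjusted p = 3.00e-07). Its list of phospholipase C and RGS genes had 8 higher and 3 lower of 28, with the G protein regulators RGS17 (2.37 ± 0.14) and RGS2 (2.23 ± 0.087) higher and the G protein subunit GNG11 lower (-1.38 ± 0.08, or -0.80 with the mean over its probe sets).

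Chemokines and interleukins were called higher in 10 and lower in 3 of 20 (50% higher and 15% lower). IL18, an inflammatory cytokine, read 10.04 and 10.43 in T2, against 7.70 and 7.21 in parental cells (2.78 ± 0.15; adjusted p = 2.12e-09). CXCL3, a neutrophil-attracting chemokine, was at 7.64 and 8.02, against 5.96 and 4.98 (2.36 ± 0.22; adjusted p = 9.59e-07), with the parental arrays nearly 1 log2 unit apart. CSF1, the macrophage growth factor, was at 8.55 and 8.35, against 9.67 and 9.71 (-1.24 ± 0.086; adjusted p = 4.30e-08), and at -0.71 with the mean over its probe sets.

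Antigen presentation genes were lower in T2 in most members tested. Of 18 class I genes 15 were called lower and none higher, with a median of -0.57 beside -0.0043 for all genes. PSMB9, a subunit of the immunoproteasome that cuts peptides for presentation, stood at 9.16 and 9.03 in T2, against 10.68 and 10.77 in parental cells (-1.63 ± 0.075; adjusted p = 4.94e-10). NLRC5, the transactivator of class I genes, was at 5.91 and 5.55, against 6.84 and 7.04 (-1.21 ± 0.14), PSMB10 was at -1.06 ± 0.085 and HLA-B, a class I heavy chain, at -1.03 ± 0.056. HLA-B still read 13.15 and 13.06 in T2, against 14.13 and 14.13 in parental cells.

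Of 12 class II genes 9 were called lower and none higher, with a median of -1.03. HLA-DRA, the alpha chain of HLA-DR, was at 6.04 and 5.43 in T2, against 9.23 and 9.17 in parental cells (adjusted p = 3.01e-10). CD74, the invariant chain that escorts class II molecules, was at 8.01 and 7.38, against 11.11 and 11.11 (adjusted p = 1.95e-10), and HLA-DRB1, a beta chain, at 6.85 and 6.63, against 8.73 and 8.77 (-2.01 ± 0.10). CIITA, the transactivator of class II genes, was not called (-0.12, adjusted p = 0.653). HLA genes are near-identical to their relatives and polymorphic, so probes may share signal between them. By the brightest probe set of each gene, T2 was also lower than each other tumour in HLA-DRA, CD74, HLA-DRB1 and HLA-DMA. HLA-DMA loads peptides onto class II molecules and was chosen for mention after its values were seen. HLA-DMA averaged 7.05 in T2, 7.86 in T3, 7.81 in T6 and 7.88 in T8, against 9.04 in parental cells. HLA-DRA averaged 5.74 in T2, 6.32 in T3, 6.44 in T6 and 6.45 in T8, against 9.20 in parental cells. A second HLA-DRA probe set put T2 level with T3 (-0.021) and below T6 (-0.59) and T8 (-0.559). Dimmer CD74 probe sets read -0.235 and -0.047 against T3, -0.03 and 0.152 against T6, and -0.532 and 0.223 against T8.

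Class II promoters are known to share an X box and a Y box, bound by RFX and NF-Y, to which CIITA is recruited. The following stretches run from 150 to 31 bases before the annotated start of 3 of these genes, from RefSeq on GRCh38.p14, 5′ to 3′ on the gene's strand, and are shown so that the shared elements can be seen. Capitals mark TGATGA, a hexamer of the X element in such promoters, and ATTGG or its complement CCAAT, the core of the Y box, searched on both strands.
HLA-DRB1 (minus strand, chr6:32589879-32589998): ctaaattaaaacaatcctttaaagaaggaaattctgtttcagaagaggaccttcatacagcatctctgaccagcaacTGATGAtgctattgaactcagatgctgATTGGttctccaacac
HLA-DMA (minus strand, chr6:32953128-32953247): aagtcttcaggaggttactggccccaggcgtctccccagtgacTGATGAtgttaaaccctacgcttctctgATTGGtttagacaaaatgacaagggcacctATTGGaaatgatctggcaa
CD74 (minus strand, chr5:150412941-150413060): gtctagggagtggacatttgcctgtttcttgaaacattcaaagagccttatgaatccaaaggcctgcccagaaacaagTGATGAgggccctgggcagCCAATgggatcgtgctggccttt
TGATGA begins 73, 107 and 72 bases before the start in HLA-DRB1, HLA-DMA and CD74. It is followed by ATTGG in HLA-DRB1 and HLA-DMA. In CD74 it is followed by CCAAT, so the match there has the other orientation and lies closer to TGATGA. HLA-DPA1, the class II gene that fell most, held neither motif in this window. Of the 12 class II genes 9 had a promoter in the table, and 3 of those 9 held both motifs in this window, which are the 3 shown, while 4 held TGATGA and 7 ATTGG. Over 27305 promoters the same window held TGATGA in 4.6%, ATTGG in 21.8% and both in 1.01%. The motifs were chosen after the values were seen, and a match is only a description of these letters.

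Interferon response genes went both ways, 14 higher and 12 lower of 41 (34.1% higher and 29.3% lower). OAS1, which makes the activator of RNase L, was at 7.30 and 7.47 in T2, against 5.72 and 5.35 in parental cells (1.85 ± 0.13; adjusted p = 5.66e-08), and OASL, its antiviral relative, at 10.66 and 10.67, against 9.60 and 9.50 (1.12 ± 0.074). SAMD9L, an antiviral and growth-restraining gene, was at 6.51 and 6.39, against 7.96 and 8.09 (-1.58 ± 0.12), and the tetherin gene BST2 at 8.94 and 9.12, against 10.09 and 10.18 (-1.11 ± 0.082). Against the other tumours the list leaned upward in T2: 21 members were higher and 2 lower than in T3, 15 and 2 against T6, and 19 and 3 against T8. Over all genes the shares were 13.9% higher and 16.9% lower against T3, 3.08% and 6.38% against T6, and 9.66% and 22.1% against T8. OASL was higher in T2 than in T3 by 2.51, than in T6 by 0.80 and than in T8 by 1.73, each called, and BST2 was lower than in each of them (-0.40, -0.43 and -0.51).

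Genes described in metastatic sublines of MDA-MB-231 rose in 21 and fell in 5 of 32 (65.6% higher and 15.6% lower), with a median of 0.92. FGF5, a fibroblast growth factor, and ADAMTS1, a proteoglycan-cutting protease, rose by 2.88 ± 0.10 and 2.73 ± 0.10 beside MMP1, EREG, KYNU and PTGS2. The list was compiled from studies of the same parental line, so it holds genes known to vary in it. Matrix metalloproteinases and their inhibitors were split, 6 higher and 6 lower of 23, with MMP10 at 1.58 ± 0.15 and the inhibitor TIMP3 at a mean of 9.996 in T2, against 11.59 in parental cells (-1.59 ± 0.072). Serpins and plasminogen activation had 7 higher and 5 lower of 16. The urokinase gene PLAU fell by 1.35 ± 0.061 and TFPI2 by 0.96 ± 0.075, and SERPINI1 rose by 0.99 ± 0.16.

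Matrix genes did not move as a block. Of 24 collagens and their modifying enzymes 8 were higher and 6 lower, with the crosslinking enzyme LOXL4 at -2.25 ± 0.087, COL8A1 at -1.19 ± 0.085, the lysyl hydroxylase PLOD2 at 0.999 ± 0.12 and COL4A1 at 0.89 ± 0.088. Integrins and laminins had 6 higher and 3 lower of 22, where the laminin chains went apart: LAMB1 was at 10.49 and 10.71 in T2, against 9.38 and 9.15 in parental cells (1.34 ± 0.095), and LAMB3 at 10.45 and 10.33, against 11.55 and 11.55 (-1.16 ± 0.068). The integrin chains ITGA1 and ITGB5 were at 0.85 ± 0.14 and -0.88 ± 0.063. Of 20 matricellular proteins 6 were higher and 4 lower, with THBS2 at 0.93 ± 0.15, SPOCK1 at 0.86 ± 0.14, TGFBI at -0.80 ± 0.06 and TNC, tenascin C, at -1.14 ± 0.12. SPARC, a secreted protein that modulates contact with the matrix, read 5.42 and 5.25 in T2 and 4.87 and 4.83 in parental cells (0.48 ± 0.15; adjusted p = 0.0186), and the mean over its probe sets ended this call (0.17; adjusted p = 0.35). Hyaluronan and proteoglycan genes had 7 higher and 2 lower of 20. HAS2, a hyaluronan synthase, was at 7.78 and 8.02 in T2, against 6.001 and 5.64 in parental cells (2.08 ± 0.12; adjusted p = 4.55e-09), opposite in direction to CEMIP. SRGN, serglycin, and SDC2, syndecan 2, rose by 2.05 ± 0.074 and 1.35 ± 0.092. Averaged over probe sets, LOXL4 stood at -1.17, ITGB5 at -0.54, TNC at -0.42 and SRGN at 1.12, still called, and without the less specific probe sets ITGB5 stood at -0.41 and SRGN at 1.25.

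Mesenchymal markers were lower in 6 and higher in 3 of 21, and epithelial markers higher in 8 and lower in 6 of 33. SNAI2, the transcription factor Slug, stood at 7.71 and 7.79 in T2, against 9.58 and 9.39 in parental cells (-1.74 ± 0.088; adjusted p = 1.21e-09), and CDH11, a mesenchymal cadherin, at -0.93 ± 0.079, against the rise of TAGLN. The tight junction genes CLDN1 (1.30 ± 0.14) and OCLN (1.14 ± 0.088) and the desmosomal DSC2 (0.81 ± 0.13) rose, and the keratin KRT80 fell by 0.83 ± 0.085. TGF-beta pathway genes and targets had 13 higher and 11 lower of 35. Besides ID2, the BMP receptor BMPR1B (1.88 ± 0.16), LTBP1 (1.83 ± 0.091), which anchors latent TGF-beta in the matrix, and the inhibitory SMAD6 (1.65 ± 0.12) rose. YAP and TEAD targets had 9 higher and 6 lower of 27, with CRIM1 (1.36 ± 0.085), ANKRD1 (0.98 ± 0.086) and WWTR1 (0.95 ± 0.10) higher and ASAP1 lower (-0.88 ± 0.069). Wnt genes had 9 higher and 7 lower of 31, or 29% higher and 22.6% lower (LGR4 1.28 ± 0.17, LEF1 1.12 ± 0.084, DKK3 0.89 ± 0.13, WNT9A -0.99 ± 0.20), and Notch genes 4 of each among 18 (HEY1 1.04 ± 0.10, MAML2 -0.68 ± 0.084, DNER 0.65 ± 0.14, HEYL 0.61 ± 0.15). With the mean over probe sets, DSC2 stood at 0.38, BMPR1B at 1.20, SMAD6 at 0.66, LGR4 at 0.50, LEF1 at 0.48, WNT9A at -0.54 and MAML2 at -0.35, still called, and WNT9A stood at -0.57 without parental replicate 1.

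Surface genes of axon guidance were called higher in 9 and lower in 5 of 33. ROBO1, a Slit receptor, was at 8.88 and 9.10 in T2, against 6.49 and 6.38 in parental cells (2.55 ± 0.11; adjusted p = 2.47e-10), NTN4, a netrin, rose by 1.87 ± 0.11, and the semaphorin SEMA4D (-1.02 ± 0.11) and the plexin PLXNA1 (-1.27 ± 0.086) fell. The PLXNA1 call ended without its less specific probe set (-0.26; adjusted p = 0.0518). Cadherins and protocadherins had 4 higher and 2 lower of 16, among them FAT4 (-1.10 ± 0.14), PCDH9 (0.86 ± 0.15) and PCDHB2 (0.78 ± 0.18). Teneurins, contactins and synaptic adhesion genes had 2 of each among 14. L1CAM, an adhesion molecule of neurons and invasive tumours, was at 6.62 and 6.34 in T2, against 8.85 and 8.79 in parental cells (-2.34 ± 0.13), ADGRL2 rose by 0.96 ± 0.15 and FLRT2 fell by 0.64 ± 0.079. Ion channels and transporters had 7 higher and 2 lower of 20, with the water channel AQP1 at 5.21 and 5.20 in T2, against 7.62 and 7.72 in parental cells (-2.46 ± 0.14), the glutamate transporter SLC1A1 at 1.58 ± 0.13 and the potassium channel subunit KCNS3 at 1.56 ± 0.095. Averaged over probe sets, PLXNA1 stood at -0.60, L1CAM at -1.46, ADGRL2 at 0.53 and FLRT2 at -0.29, still called.

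Hypoxia and glycolysis genes were called higher in 19 and lower in 3 of 32 (59.4% higher and 9.38% lower). The glycolytic enzymes ALDOC (8.14 and 8.26 in T2, against 6.66 and 6.85 in parental cells; 1.45 ± 0.12), HK2 (11.26 and 11.37, against 10.01 and 9.82; 1.402 ± 0.076) and ENO2 (11.73 and 11.76, against 10.50 and 10.49; 1.25 ± 0.061) and the peptide hormone ADM (1.41 ± 0.068) led them. HK2 stood lower, at 0.39, with the mean over its probe sets. VEGFA, the angiogenic factor of the same response and outside the rule for named genes, was the strongest of the 3 lower ones, at -1.14 ± 0.076. Against the other tumours 21 members were higher and 2 lower than in T3, 7 and 2 against T6, and 19 and 3 against T8. The shares over all genes were 13.9% higher and 16.9% lower against T3, 3.08% and 6.38% against T6, and 9.66% and 22.1% against T8.

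NRF2 targets with the AKR1C genes were lower in 10 and higher in 5 of 22 (22.7% higher and 45.5% lower). The aldo-keto reductases AKR1C3, AKR1C1 (-1.22 ± 0.11) and AKR1C2 (-0.99 ± 0.14) are close copies whose probes may share signal, and without its less specific probe set AKR1C1 was not called (-0.058; adjusted p = 0.8). The epoxide hydrolase EPHX1 fell by 1.06 ± 0.088. Of 11 genes of the aryl hydrocarbon receptor axis 4 were lower and KYNU was the 1 higher gene, with CYP1B1, a cytochrome P450 target of the receptor, at 10.05 and 9.88 in T2, against 11.88 and 11.85 in parental cells (-1.90 ± 0.076; adjusted p = 1.23e-10), NQO1 at -0.60 ± 0.065 and the amino acid transporter SLC7A5 at -0.52 ± 0.064. Unfolded protein and amino acid stress genes had 12 higher and 9 lower of 30. The asparagine synthetase ASNS fell by 1.37 ± 0.073, while GDF15 (1.16 ± 0.092), the mitochondrial folate enzyme MTHFD2 (1.04 ± 0.089) and the stress kinase EIF2AK3 (0.91 ± 0.13) rose. With the mean over probe sets, AKR1C1 stood at -0.52, ASNS at -0.67, GDF15 at 0.28 and EIF2AK3 at 0.52, still called. Cholesterol and fatty acid synthesis had 9 higher and 5 lower of 25, with EBP (-1.26 ± 0.07), LSS (-0.71 ± 0.068) and PMVK (-0.63 ± 0.074) lower and the sterol carrier STARD4 higher (1.05 ± 0.11).

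Cell cycle and replication genes were called higher in 9 and lower in 11 of 40, none by log2 1 or more. MCM7 and MCM6, subunits of the replicative helicase, fell by 0.61 ± 0.058 and 0.61 ± 0.076, and the centromere histone CENPA and the kinase CDK2 rose by 0.59 ± 0.069 and 0.55 ± 0.071. Of 19 p53 targets 6 were higher and 1 lower (31.6% higher and 5.26% lower), with TP53I3 (1.19 ± 0.091), TIGAR (0.998 ± 0.092) and GADD45A (0.88 ± 0.074) above parental cells, in a line known to carry mutant p53. S100 proteins were lower in 7 and higher in 1 of 12 (8.33% higher and 58.3% lower), S100A2 at 9.45 and 9.27 in T2, against 11.29 and 11.29 in parental cells (-1.93 ± 0.074), S100A5 at -1.37 ± 0.15 and S100P at 8.54 and 8.57, against 7.18 and 7.08 (1.43 ± 0.11). Retinoid pathway genes had 4 higher and 6 lower of 17: CYP26B1, which degrades retinoic acid, rose by 1.92 ± 0.10, and the transglutaminase TGM2, a retinoid-induced gene, fell by 1.26 ± 0.068. SDR16C5 was at 1.20 ± 0.12 and DHRS3, a retinal reductase, at -0.98 ± 0.12. Breast stem and luminal markers had 3 higher and 2 lower of 10, with CD24 at 9.87 and 10.06 in T2, against 8.03 and 7.90 in parental cells (1.999 ± 0.082; adjusted p = 1.44e-10), SOX4 at 1.55 ± 0.091 and PROCR at 0.69 ± 0.10, and the luminal factor GATA3 at -1.13 ± 0.13. Averaged over probe sets, MCM6 stood at -0.35, CYP26B1 at 1.12, TGM2 at -0.72 and SOX4 at 0.77, still called, and without its less specific probe sets GATA3 stood at -0.66.

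The called changes in the remaining lists were all under log2 1. Metallothioneins and zinc genes were lower in 4 of 9 (44.4%), led by the zinc exporter SLC30A1 (-0.39 ± 0.077) and MT1E (-0.27 ± 0.048), close to its relatives in sequence. Heat shock genes had 2 of each among 11: the small heat shock protein HSPB8 was at 0.997 ± 0.10, a call that ended without its less specific probe set (0.14; adjusted p = 0.491), and HSPB1 at -0.54 ± 0.065. Drug efflux transporters had 1 higher and 3 lower of 10, ABCC10 at 0.40 ± 0.10 and ABCA3, ABCA2 and ABCC5 at -0.40 ± 0.11, -0.39 ± 0.11 and -0.33 ± 0.095. The ABCA2 call ended with the mean over probe sets (-0.21; adjusted p = 0.082) and without the less specific probe sets (-0.03), and the ABCC5 call without parental replicate 2 (-0.21; adjusted p = 0.191). Cancer-testis antigens, a family of close copies, were lower in 3 of 8 (37.5%), with MAGEA6 at -0.72 ± 0.24, MAGEC2 at -0.52 ± 0.15 and MAGEC1 at -0.47 ± 0.12. The MAGEC2 call ended with the mean over probe sets (-0.32; adjusted p = 0.071) and without parental replicate 2 (-0.29; adjusted p = 0.233).

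Markers of other cells were set beside these values because tumours hold host cells, although those would be cells of the mouse here, and whether mouse RNA binds these probes was not tested. Of 12 endothelial markers 4 were higher, ESAM (11.05 and 11.15 in T2, against 9.64 and 9.53 in parental cells; 1.51 ± 0.067), ROBO4 (0.77 ± 0.082), ENG (0.55 ± 0.13) and KDR (0.44 ± 0.13), while PECAM1 (-0.015), CDH5 (-0.044) and VWF (0.091) were not called. The ENG call ended with the mean over its probe sets (0.30; adjusted p = 0.132). Of 9 markers of fibroblasts and pericytes 2 were higher, MCAM (1.18 ± 0.093) and CSPG4 (0.41 ± 0.12), and MCAM stood at -0.063 without its less specific probe set. Macrophage markers were lower in 2 of 8 (CSF1R -0.54 ± 0.14, LAPTM5 -0.51 ± 0.07), blood and lymphocyte markers higher in 1 of 6 (CD3D 0.95 ± 0.15) and adipocyte and muscle markers lower in 1 of 10 (MB -0.78 ± 0.13). The summed log2 level of the tested markers was 77.39 in T2, against 73.98 in parental cells for endothelium, 61.97 against 60.67 for fibroblasts and pericytes, 48.59 against 49.97 for macrophages, 37.64 against 37.0 for blood, and 60.10 against 60.77 for adipocytes and muscle. The defining markers PTPRC, MS4A1, CD163, MRC1, EMCN, PDGFRA, LUM and COL3A1 did not pass the filter on low signal. The part of other cells in the results above was not tested.

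**Figure D2:**
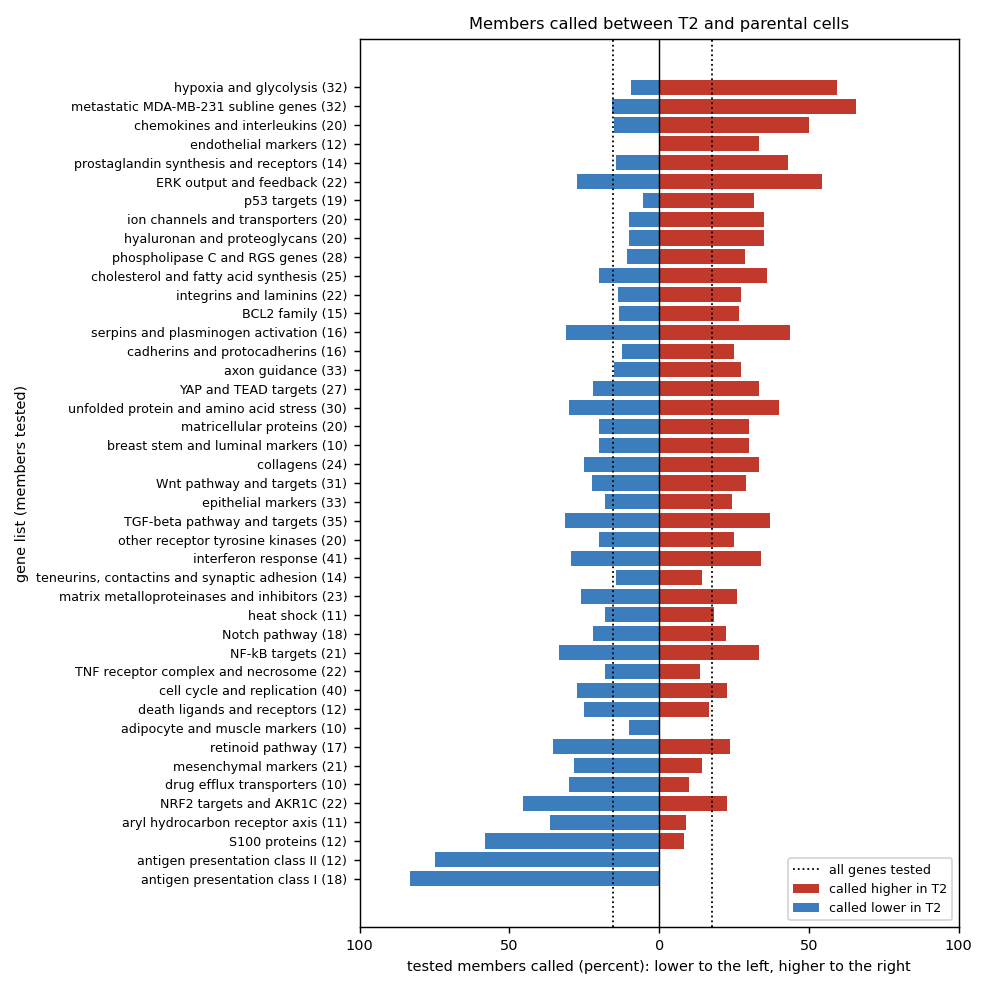
Share of tested members (percent, x axis) called higher (right) and lower (left) in T2 against parental cells, for each list with at least 10 tested genes, whose number is in brackets, with dotted lines at the shares over all genes (17.5% higher and 15.5% lower). Class I and class II antigen presentation have bars to the left only, with 15 of 18 and 9 of 12 members lower, and metastatic subline genes the longest bar to the right, with 21 of 32 higher.

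T2 was also tested against each other tumour. A gene was taken to set T2 apart if it was called in the same direction against parental cells, T3, T6 and T8, and differed from parental cells by log2 1 or more, whether or not the other tumours also differed from parental cells. This held for 79 genes higher in T2 (0.529%) and 64 lower (0.429%), 143 in all. In 54 of the 79 and 31 of the 64, T3, T6 and T8 were each called against parental cells in the direction of T2. Those genes changed in every tumour and further in T2, by comparisons that share the parental arrays. In each of the 143 genes both T2 arrays lay outside all 8 other arrays, a separation that the selection itself favours. T6 was the nearest line: T2 differed from it by log2 1 or more in 47 called genes, from T8 in 241 and from T3 in 429. The count depended on the T6 arrays, with 83 genes left without T6 replicate 1 and 81 without T6 replicate 2, and the mean over probe sets gave 91. A second bright probe set existed for 81 of the 143, and in 74 of those at least 1 such probe set showed all 4 differences in the same direction.

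OLR1, a scavenger receptor for oxidised LDL, had the greatest fitted least difference from another line among the higher genes, a size that is uncertain because the other lines lay near background. It passed the filter through its T2 arrays. It read 5.37 and 5.91 in T2 and averaged 3.77 in T3, 4.11 in T6 and 4.15 in T8, against 3.86 in parental cells. BCL2A1 was higher in T2 than in every other tumour, by 2.83 against T3, 1.22 against T6 and 1.96 against T8 (adjusted p at most 9.38e-05). Its means were 7.92 in T2, 5.09 in T3, 6.70 in T6 and 5.96 in T8, against 3.67 in parental cells. LCK, a Src family kinase best known in T cells, averaged 6.08 in T2, 4.47 in T3, 4.94 in T6 and 4.57 in T8, against 4.50 in parental cells. CD3D, another T cell gene, was also higher in T2 (6.33, 5.30 in T3, 5.66 in T6 and 5.59 in T8, against 5.38 in parental cells), whereas CD3E was not called against parental cells (0.074). TRBC1, a constant segment of the T cell receptor that was picked out after its values were seen, averaged 9.34 in T2, 6.36 in T3, 9.01 in T6 and 8.32 in T8, against 8.27 in parental cells. PTPRC, the marker of all white blood cells, did not pass the filter. The part of lymphocytes in the LCK value was not tested. RASGRP3, an exchange factor for small GTPases, averaged 7.51 in T2, 5.63 in T3, 6.50 in T6 and 5.88 in T8, against 5.55 in parental cells.

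The others of the 12 with the largest least differences were JCAD, a junction protein (1.09), SLC3A1, a subunit of the cystine transporter (0.96), HS6ST3, which sulphates heparan (0.95), STOM, the membrane protein stomatin (0.92), VXN (0.92), the adhesion molecule MPZL2 (0.84), LTBP1 (0.82) and ST8SIA4, a polysialyltransferase (0.81), where each value is the smallest of the 4 differences. STOM was bright, with 10.25 and 10.42 in T2, 8.97 in T3, 9.41 in T6 and 8.87 in T8, against 9.07 in parental cells. With the mean over probe sets the differences from parental cells were 0.94 for LCK, 1.09 for RASGRP3, 1.14 for HS6ST3, 1.004 for VXN and 0.85 for MPZL2, against 1.57 ± 0.16, 1.96 ± 0.14, 1.97 ± 0.13, 1.97 ± 0.17 and 1.69 ± 0.18 as reported. MPZL2 and ST8SIA4 no longer differed from every line without T2 replicate 2 (adjusted p = 0.0603 and 0.0586) or without T6 replicate 2 (adjusted p = 0.129 and 0.068). Among the genes chosen by other rules, SEL1L3, PCDH7, FGF5, IL11, IL18, RGS2, LAMB1, ALDOC, OASL, HK2, SDC2, KCNS3, CYP26B1, MTHFD2 and CRIM1 also set T2 apart upward. A second bright IL11 probe set was nearly level with T6 (0.028). The dimmer HK2 probe sets were not above T6 (-0.079 and -0.349) or T8 (-0.335 and -0.692).

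EHF, an epithelial ETS transcription factor, led the lower genes. It read 8.10 and 8.05 in T2 and averaged 10.001 in T3, 9.57 in T6 and 9.60 in T8, against 10.58 in parental cells. ADGRF5, an adhesion G protein-coupled receptor, averaged 9.10 in T2, 12.25 in T3, 10.53 in T6 and 10.997 in T8, against 10.72 in parental cells. TNC averaged 6.03 in T2, 9.53 in T3, 7.12 in T6 and 7.70 in T8, against 7.17 in parental cells, and with the mean over its probe sets it no longer differed from every line (adjusted p = 0.0521). G0S2, an inhibitor of the lipase ATGL, was bright in all lines, with 10.87 in T2, 12.95 in T3, 11.94 in T6 and 12.36 in T8, against 12.91 in parental cells. Calretinin (CALB2) averaged 7.34 in T2, 8.70 in T3, 8.43 in T6 and 9.65 in T8, against 10.13 in parental cells. The translation release factor gene GSPT2 (-1.30), AMMECR1 (-1.03), MPP1, a membrane scaffold (-0.91), FBXO32, the ubiquitin ligase subunit atrogin-1 (-0.91), and CLMP, an adhesion molecule (-0.90), completed the 12 beside CHRDL1 and SH3BGRL. FBXO32 did not pass with the mean over probe sets (adjusted p = 0.109). SNAI2, TIMP3, COL8A1, LAMB3, TGM2, GNG11, EBP, VEGFA and ADGRF1 also set T2 apart downward.

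In 7 of the 143 genes no other tumour was called in the direction of T2 against parental cells, a set of comparisons that share the parental arrays. OLR1, LCK and ST8SIA4 were higher in T2, while T3, T6 and T8 were not called against parental cells in either direction. All other lines averaged under log2 5 in these genes, which passed the filter through their T2 arrays. The missing calls therefore compare values near background, and the filter itself favours such a pattern. ST8SIA4 averaged 5.35 in T2, 4.21 in T3, 4.42 in T6 and 4.53 in T8, against 4.14 in parental cells. ADGRF5, TNC, CHRDL1 and SH3BGRL were lower in T2 and were called higher than parental cells in 2 of the other tumours each. CHRDL1, a BMP antagonist, averaged 5.45 in T2, 8.44 in T3, 6.84 in T6 and 7.95 in T8, against 6.93 in parental cells. SH3BGRL, a small thioredoxin-fold protein, averaged 8.38 in T2, 10.26 in T3, 9.48 in T6 and 9.84 in T8, against 9.39 in parental cells.

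Several of the genes most changed against parental cells lay closer to the other tumours. TNFSF10 in T2 was not called against T3 (-0.11; adjusted p = 0.496) or T6 (-0.14; adjusted p = 0.42) and was higher than in T8 (0.40; adjusted p = 0.00843). MMP1 was not called against T3 (-0.091; adjusted p = 0.405) and was higher than in T6 (0.65) and T8 (0.43). CEMIP was called against none of them, at 0.012 against T3, -0.20 against T6 and 0.25 against T8. T2 and T3, both labelled resistant, went apart in several of these genes. PTGS2 was lower in T2 than in T3 by 2.51 and PLCB4 by 1.12, and SPARC differed from T3 by 0.35 (adjusted p = 0.0888) but from T6 by -1.78. LRIG1 was lower in T2 than in T6 by 1.03 and than in T8 by 1.26, and differed from T3 by -0.28 (adjusted p = 0.163). BIRC2 was higher in T2 than in T3 (0.34), T6 (0.27) and T8 (0.22), and XIAP lower (-0.98, -0.65 and -0.80), each called.

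**Figure D3:**
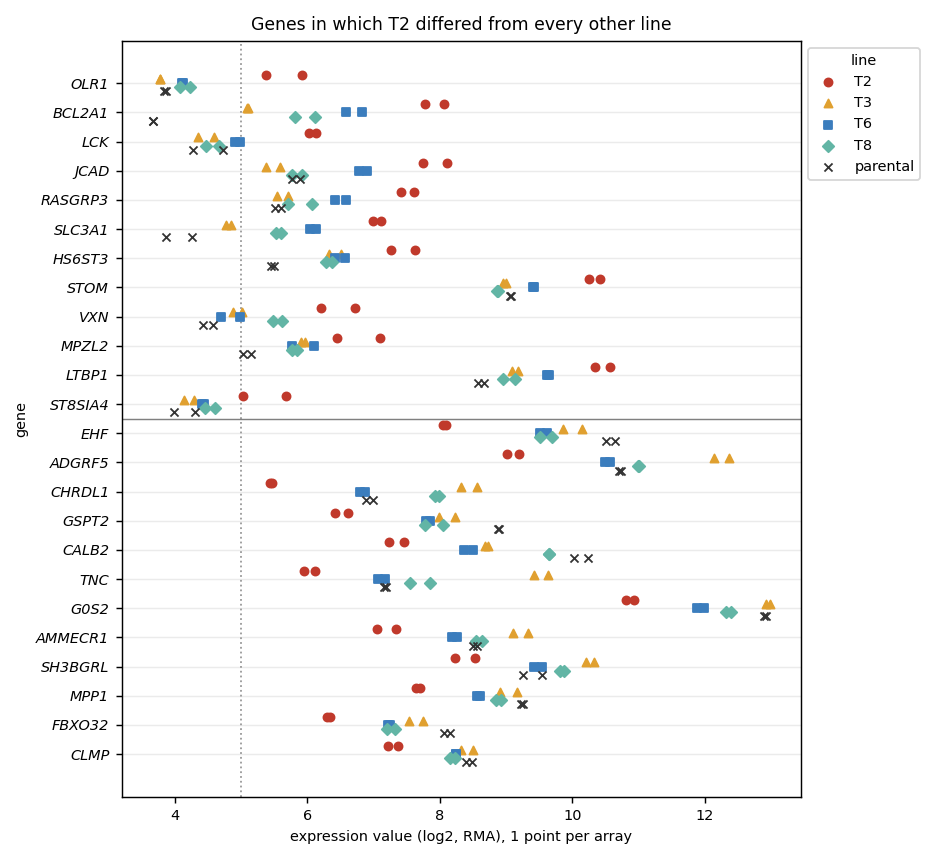
Expression values (log2, x axis) of the 12 higher and, below the line, the 12 lower genes in which T2 differed most from its nearest other line, with 1 point per array for T2, T3, T6, T8 and parental cells and the filter value of log2 5 dotted. The T2 points lie outside all other points in each gene, which the choice of these genes favours, and OLR1 reads 5.37 and 5.91 in T2 against 3.84 and 3.87 in parental cells.

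The calls were unevenly spread over the chromosomes, a pattern chosen for description after the values were seen. On chromosome X 45.2% of 476 genes were lower in T2 than in parental cells and 8.82% higher. Chromosome 7 had 45.2% lower and 6.09% higher, and chromosome 21 had 37.3% lower and 5.42% higher. Chromosome 12 had 47.7% higher and 3.15% lower, and chromosome 2 had 31.9% higher and 13.7% lower. On chromosomes 7, 12 and 21 the other tumours lay on the same side of parental cells. In T2, T3, T6 and T8 the medians were -0.23, -0.15, -0.21 and -0.14 on chromosome 7. They were 0.23, 0.052, 0.23 and 0.18 on chromosome 12, and -0.15, -0.19, -0.15 and -0.035 on chromosome 21. Gene order was taken from the RefSeq table of GRCh38.p14. In consecutive blocks of 25 neighbouring tested genes, those in which T2's median was higher than all 4 other lines by at least log2 0.1 numbered 14 of 586, with 8 on chromosome 2, and those lower numbered 22, with 9 on chromosome X.

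**Figure D4:**
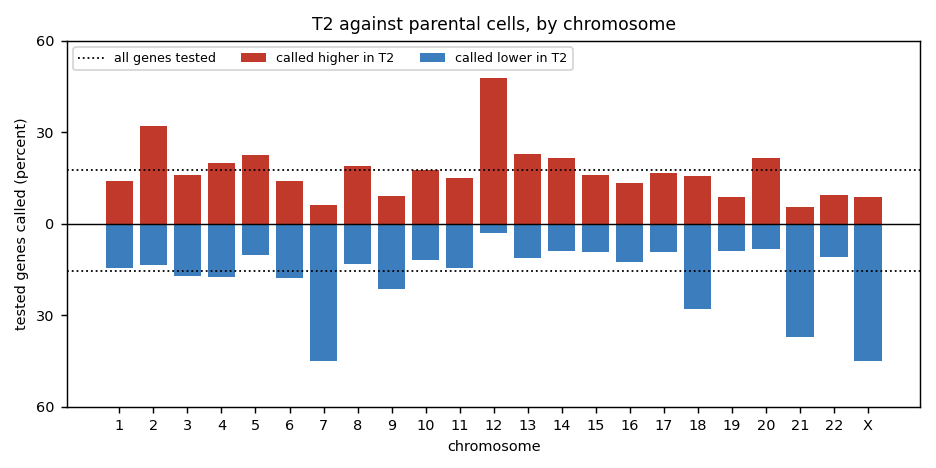
Share of tested genes (percent, y axis) called higher (up) and lower (down) in T2 against parental cells on each chromosome, with dotted lines at the shares over all genes (17.5% and 15.5%). Chromosome 12 has the tallest bar upward, with 47.7%, and chromosomes 7 and X the tallest downward, with 45.2% each.

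The lower genes of chromosome X that set T2 apart lay mostly in its long arm. From CHIC1 to the last gene, IL9R, 226 genes were tested, of which 135 (59.7%) were lower and 7 (3.1%) higher in T2 than in parental cells, with a median of -0.42. Against T3 150 were lower, against T6 120 and against T8 149, with medians of -0.64, -0.37 and -0.56. T3, T6 and T8 had medians of 0.16, -0.078 and 0.063 against parental cells over the same genes. T2 was the lowest of the 5 lines in 153 of the 226, where it was the lowest in 21% of all genes. The stretch held 10 of the 13 genes of chromosome X that set T2 apart downward: CHRDL1, AMMECR1, SH3BGRL, MPP1, MBNL3, a splicing regulator (-0.87), ATRX, a chromatin remodeller (-0.66), FUNDC2 (-0.66), HTATSF1 (-0.53), CMC4 (-0.52) and LAMP2, a lysosomal membrane protein (-0.47). ATRX averaged 7.73 in T2, 8.55 in T3, 8.38 in T6 and 8.63 in T8, against 8.87 in parental cells. XIAP and L1CAM also lie in it. The 250 genes before CHIC1 had 80 lower (32%) and 35 higher (14%) than parental cells, beside 15.5% and 17.5% over all genes. The ends of the stretch were set with the values known, and some genes before CHIC1, among them PJA1, also set T2 apart downward.

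On chromosome 2, from the first tested gene SH3YL1 to TGOLN2, 376 genes were tested, of which 235 (62.5%) were higher and 12 (3.19%) lower in T2 than in parental cells, with a median of 0.37. The other tumours were above parental cells there too, with medians of 0.25 in T3, 0.22 in T6 and 0.33 in T8, and T2 was above each of them, by medians of 0.15, 0.19 and 0.10. T2 was the highest of the 5 lines in 202 of the 376, where it was the highest in 18.8% of all genes. All 21 chromosome 2 genes that set T2 apart upward lay in this stretch, of 79 in the genome. They included RASGRP3, SLC3A1, LTBP1, HK2, CYP26B1, MTHFD2, CRIM1 and KCNS3, and also PKDCC, a secreted kinase (0.76), CAD, the first enzyme of pyrimidine synthesis (0.41), QPCT (0.59), FKBP1B (0.58), MATN3, a matrix protein (0.57), and KHK, the fructokinase (0.36). CAD averaged 10.69 in T2, 10.11 in T3, 10.28 in T6 and 10.26 in T8, against 9.69 in parental cells. The 601 genes after TGOLN2 had 77 higher (12.8%) and 122 lower (20.3%), and the end of this stretch too was set with the values known. Gene copy number was not analysed here.

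**Figure D5:**
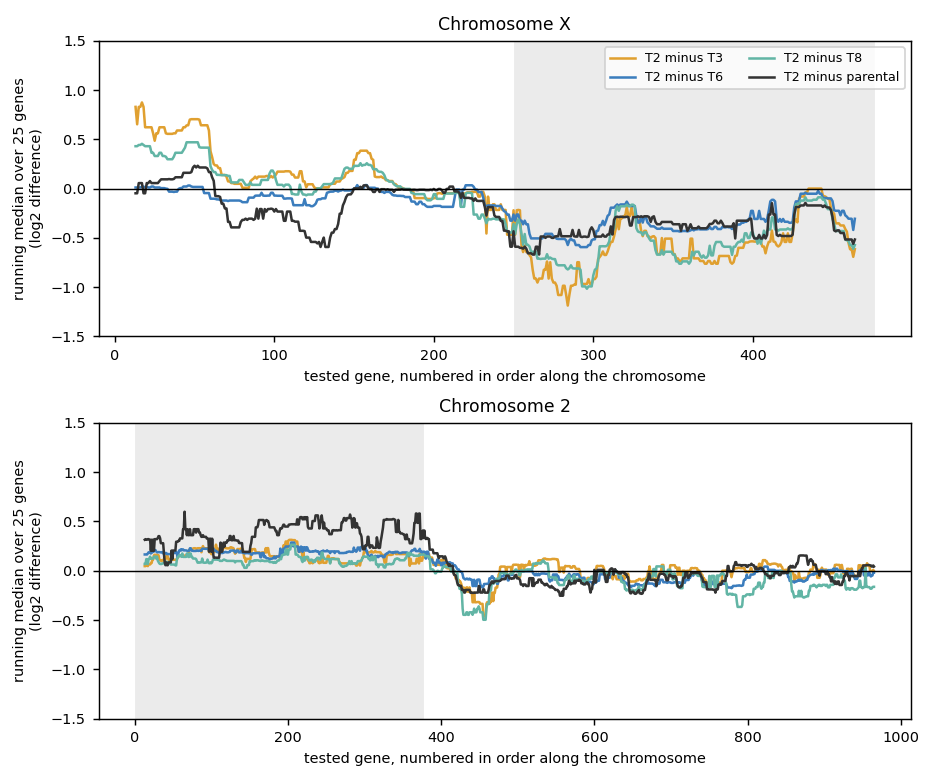
Running median over 25 tested genes of the log2 difference of T2 from T3, T6, T8 and parental cells (y axis) against gene number in order along chromosome X (top) and chromosome 2 (bottom), with the stretches from CHIC1 onward and up to TGOLN2 shaded. In the shaded stretch of chromosome X all 4 lines of differences run at or below 0 for most of its length, with medians of -0.37 to -0.64, and in that of chromosome 2 they run above 0, with medians of 0.10 to 0.37.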

How the data were processed

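RNA of 5 lines was measured on 10 Affymetrix arrays, 2 per line, and the authors' deposited values are log2 RMA values, made with affy and limma per the submitters' processing notes; versions are not given in the sources used here. RMA compresses differences of dim genes. Of 54675 probe sets, 41091 had 1 gene symbol from the platform annotation, 1801 several, 11721 none and 62 were controls. Per gene the probe set with the highest mean was kept, and genes at log2 5 on at least 2 arrays were tested, 14929 of 19775. limma 3.58.1 in R 4.3.3 fitted 1 mean per line over all 10 arrays (5 residual degrees of freedom, intensity trend), so the lines share 1 estimate of the spread. T2 was contrasted with parental cells, T3, T6 and T8, with Benjamini-Hochberg adjustment over all tested genes (threshold 0.05). The script was tested on simulated data. Arrays have no read depth: their number and closeness to background limit precision.

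Genes named are the 12 largest called changes per direction without overlap, the 12 per direction with the largest least difference of T2 from the other lines, up to 4 called members of each of 52 gene lists, and 12 fixed genes, of which 10 were tested. Genes of the chromosome stretches, HLA-DMA, VEGFA, TRBC1, CIITA and the line and cell type markers fall outside these rules and were picked after their values were seen. The members and lists were chosen with earlier results of these data known. Alternatives covered the normalisation, the filter, the choice of probe sets, the fit, each array left out, and the replicate number as a block. Arrays of the same number, as given in the titles, correlated in their deviations at -0.387 (T2 and parental cells) to 0.502 (T2 and T3) over the 10 pairs of lines, so the numbers do not pair the samples throughout and the design has no block.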

Additional observations from a re-analysis of the deposited data

Results flagged for a closer look

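The genes in which T2 differed from all 4 other lines were picked out because a test of each difference between lines was passed. Given here is the smallest of the 4 differences on the log2 scale. The higher genes were OLR1 (1.498), BCL2A1 (1.223), LCK (1.138), JCAD (1.089), RASGRP3 (1.01), SLC3A1 (0.9593), HS6ST3 (0.9523), STOM (0.9204), VXN (0.9176), MPZL2 (0.8433), LTBP1 (0.8211) and ST8SIA4 (0.8118). The lower genes were EHF (-1.498), ADGRF5 (-1.426), CHRDL1 (-1.391), GSPT2 (-1.304), CALB2 (-1.089), TNC (-1.089), G0S2 (-1.062), AMMECR1 (-1.032), SH3BGRL (-1.018), MPP1 (-0.9124), FBXO32 (-0.9099) and CLMP (-0.8979). Of the 24, MPZL2, ST8SIA4, TNC and FBXO32 lost the call in at least 1 alternative.

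Probe sets without a single gene name lay outside the comparisons by gene. Of 13522 such probe sets 5515 passed the filter, and 84 were called in T2 against parental cells by log2 1 or more, 44 higher and 40 lower. In 21 of the 5515, T2 differed from all 4 other lines in the same direction and from parental cells by log2 1 or more.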

How the results depend on the processing

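The 4928 genes called in T2 against parental cells numbered 3908 in a fit of the 4 arrays alone and 3905 to 4974 when 1 array was left out. The split changed with the scaling: 52.9% of called genes were higher as reported, 49.1% after another quantile normalisation and 58.4% after centring array medians. With the mean over probe sets, 344 genes were called by log2 1 or more instead of 521, and T2 stood apart from all other lines in 91 genes instead of 143. That last count ranged from 81 to 158 when 1 array was left out, with 81 and 83 without an array of T6 and 158 and 117 without T2 replicate 1 and T2 replicate 2. With the replicate block it was 131, and 4751 genes were called against parental cells; a crossed block, chosen after seeing the data, gave 150 and 5168. Without the less specific probe sets, LTB (0.0066) and MCAM (-0.063) changed sign, and the cause was not tested. With a filter at log2 6 the median of the chromosome X stretch was -0.49. Of the values of named genes over the alternatives, 4133 stayed on their side of the threshold, 82 lost the call and 2 called values changed sign. CASP8 and TNFRSF1A, which were not called, also changed sign in some alternatives. The closeness of dim genes to background limits their fold changes.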
